A study of Mus musculus with 2 samples.

Results

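The intervals of mouse chromosome 15 in a Myc-Tag ChIP-seq of Lck-Dlx5 T-cell lymphoma are described here with the genes they lie at. All called intervals on that chromosome were taken, which gave 263 of the 3477 Myc-Tag intervals, and each was joined to its summit, the point of strongest signal, and to the height of the summit. Chromatin immunoprecipitation with sequencing (ChIP-seq) recovers DNA fragments bound by a protein. Here an antibody to the Myc-Tag captured Dlx5, a homeodomain transcription factor that the Lck promoter expresses in thymocytes of the transgenic mice. The labels give a primary T-cell lymphoma for both samples, of strain C57BL/6 for the Myc-Tag ChIP and written as C57BL/7 for the input, while the methods describe a lymphoma line and an IgG control. Age and treatment are not given in the labels beyond normal housing. Both samples carry the transgene, so no tumor without Dlx5 was compared, and each group has 1 library, so no difference has a replicate check and no p-value was computed. Lymphoma lines of these mice are described as carrying an extra copy of this chromosome. The article's karyotype table gives the extra copy for every line listed. Among them is a line whose name nearly matches the line that the methods give for the ChIP-seq. Whether these are the same line is not stated. Copy number was not measured in these files, so the number of copies and the binding per copy cannot be told apart.

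Homeodomain proteins of the Dlx family recognize short AT-rich sites with the core TAATT. Chromosome 15 of the mouse carries the oncogene Myc, the Ly6 cluster of cell surface proteins, the keratin and Hoxc clusters, and many genes for translation, splicing and mitochondrial import that dividing cells use. Active promoters of such broadly used genes commonly lie in CpG islands, stretches rich in G, C and the dinucleotide CG. Intervals were placed on GRCm38 (mm10). The labels list mm9 and a browser view in the article shows mm10, and the positions fit GRCm38: 55.5% of chromosome 15 summits lay within 1 kb of an end of a protein-coding gene on that build, although such zones cover 2.76% of the annotated span.

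The promoters below show sequence inside chromosome 15 intervals at gene starts. The summit itself lies within 3 of the 8 windows, those of Fam118a, Xpnpep3 and Tomm22, and outside the other 5. Each is the RefSeq window on GRCm38.p6 from 250 bases before to 50 bases after the start, 5′ to 3′ on the strand of the gene, with TAATT or its reverse complement AATTA in capitals. Only genes with a listed start have a window. The summits at the end of Zfat (35) and at the end shared by Puf60 and Scrib (34) are taller but have none. The first 5 are the windows wholly inside an interval that had the tallest summits not called in the input (Tuba1b, tied at 31, is left out), those of Fam118a, Xpnpep3 (a mitochondrial aminopeptidase), Atf4 (a transcription factor of the stress response), Atg101 (a subunit of the complex that starts autophagy) and Rangap1 (the GTPase activator of Ran). They lie at chr15:85036812-85037111 (plus strand, summit height 33), chr15:81399888-81400187 (plus, 33), chr15:80254934-80255233 (plus, 31), chr15:101284051-101284350 (plus, 31) and chr15:81729870-81730169 (minus, 31).
Fam118a: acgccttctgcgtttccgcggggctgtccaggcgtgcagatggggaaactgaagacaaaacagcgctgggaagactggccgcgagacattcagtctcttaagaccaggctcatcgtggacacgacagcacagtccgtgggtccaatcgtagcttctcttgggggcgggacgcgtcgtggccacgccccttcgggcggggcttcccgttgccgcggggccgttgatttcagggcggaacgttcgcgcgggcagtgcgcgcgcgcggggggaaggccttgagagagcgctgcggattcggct
Xpnpep3: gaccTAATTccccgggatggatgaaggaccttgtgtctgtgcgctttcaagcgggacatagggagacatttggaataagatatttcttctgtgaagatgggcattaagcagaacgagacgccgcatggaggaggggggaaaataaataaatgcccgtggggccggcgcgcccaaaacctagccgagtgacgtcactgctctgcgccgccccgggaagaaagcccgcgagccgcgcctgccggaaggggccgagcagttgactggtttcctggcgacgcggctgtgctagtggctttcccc
Atf4: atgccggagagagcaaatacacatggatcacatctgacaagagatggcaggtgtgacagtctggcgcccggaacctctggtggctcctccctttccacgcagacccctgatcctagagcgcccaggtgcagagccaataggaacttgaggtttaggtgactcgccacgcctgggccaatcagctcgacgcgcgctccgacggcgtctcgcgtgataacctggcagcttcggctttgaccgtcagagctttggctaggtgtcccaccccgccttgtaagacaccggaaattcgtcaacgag
Atg101: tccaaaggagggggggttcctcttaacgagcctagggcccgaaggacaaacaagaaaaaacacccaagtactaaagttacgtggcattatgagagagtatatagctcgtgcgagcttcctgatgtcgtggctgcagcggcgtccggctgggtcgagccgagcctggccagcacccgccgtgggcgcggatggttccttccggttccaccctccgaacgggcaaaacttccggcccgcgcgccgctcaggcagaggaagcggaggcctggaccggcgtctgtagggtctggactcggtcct
Rangap1: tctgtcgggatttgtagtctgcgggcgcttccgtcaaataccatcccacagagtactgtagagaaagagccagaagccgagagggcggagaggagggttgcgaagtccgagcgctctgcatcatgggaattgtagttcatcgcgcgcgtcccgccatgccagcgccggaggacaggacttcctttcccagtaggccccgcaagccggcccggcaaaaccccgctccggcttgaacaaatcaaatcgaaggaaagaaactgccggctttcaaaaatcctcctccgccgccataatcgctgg

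Capitals appear in 1 of these 5 windows, that of Xpnpep3. The next 3 belong to members of the gene lists described further on, and are those with the tallest summits among members whose promoter lay inside an interval and held the motif (Drosha, at 16, came next): Tomm22, an import receptor of the outer mitochondrial membrane, at chr15:79670618-79670917 (plus strand, height 25), Hnrnpa1, an RNA-binding protein of splicing, at chr15:103240147-103240446 (plus, 23), and Tubgcp6, a subunit of the gamma-tubulin complex, at chr15:89123101-89123400 (minus, 18).
Tomm22: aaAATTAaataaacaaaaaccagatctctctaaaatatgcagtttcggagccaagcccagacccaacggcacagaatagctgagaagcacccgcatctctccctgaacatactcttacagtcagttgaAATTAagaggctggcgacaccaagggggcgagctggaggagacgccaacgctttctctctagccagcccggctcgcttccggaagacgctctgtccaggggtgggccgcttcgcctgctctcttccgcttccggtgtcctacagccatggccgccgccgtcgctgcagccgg
Hnrnpa1: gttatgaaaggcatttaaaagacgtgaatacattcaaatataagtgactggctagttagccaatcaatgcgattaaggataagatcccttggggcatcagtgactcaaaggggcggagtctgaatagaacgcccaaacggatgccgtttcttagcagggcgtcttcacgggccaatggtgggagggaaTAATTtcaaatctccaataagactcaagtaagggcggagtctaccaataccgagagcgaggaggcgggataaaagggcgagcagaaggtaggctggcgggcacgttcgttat
Tubgcp6: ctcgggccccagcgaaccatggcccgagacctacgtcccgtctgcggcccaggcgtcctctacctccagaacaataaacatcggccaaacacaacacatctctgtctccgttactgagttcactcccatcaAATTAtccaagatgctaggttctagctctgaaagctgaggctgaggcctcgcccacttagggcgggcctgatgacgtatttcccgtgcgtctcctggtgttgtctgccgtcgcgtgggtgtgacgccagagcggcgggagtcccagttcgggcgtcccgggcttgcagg

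Among chromosome 15 promoters of coding genes that lay wholly inside an interval, 15 of 80 windows (18.8%, 95% Wilson interval 11.7 to 28.7%), from 72 genes, held TAATT on either strand. The share was 20.2% (16.7 to 24.3%) of the 426 chromosome 15 windows that touched no interval, 13.7% of 1377 windows inside intervals on the other autosomes, and 23.5% of all 21263 promoters of the same length. The other 3 shares all lie within the interval of the first. That interval counts windows as independent, although some that hold the motif overlap, as those of Drosha and 6030458C11Rik and those of Ankrd54. The longer TAATTA, which contains TAATT, was found in 2 of the 80 windows (2.5%, 0.688 to 8.66%). Base composition differed: the 80 windows had a median GC content of 64.2% and a median of 28.5 CG dinucleotides, against 58.0% and 11 in the windows that touched no interval. The windows inside intervals on the other autosomes had 64.0% and 26. TAATT holds only A and T, so its share depends on composition, and the shares were not adjusted for it. A match is a description of letters, and windows of 300 bases do not cover whole intervals. Only genes with a listed start have windows, and none of the 80 lay between 31602165 (Atpsckmt) and 77842126 (Myh9).

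The median summit was taller on chromosome 15 than on any other autosome. Heights on chromosome 15, a deposited score without stated normalization, ran from 10 to 155, with quartiles of 15 and 23 and a median of 18 (exact 95% interval 18 to 19). The median was 15 over 3190 intervals on the other autosomes together and 15 to 16 on each of them, where the upper quartile was 17 to 20. Of all Myc-Tag intervals, 28% reached a height of 19. On chromosome 15, 131 of 263 did so (49.8%, 95% Wilson interval 43.8 to 55.8%), against 26.3% on the other autosomes together (24.8 to 27.9%) and 19.2 to 33.0% on each. The difference was 23.5 percentage points (95% Newcombe interval 17.3 to 29.7). Read totals were not used here, so the depth behind a height is unknown, and all intervals cover counting error only.

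**Figure D1:**
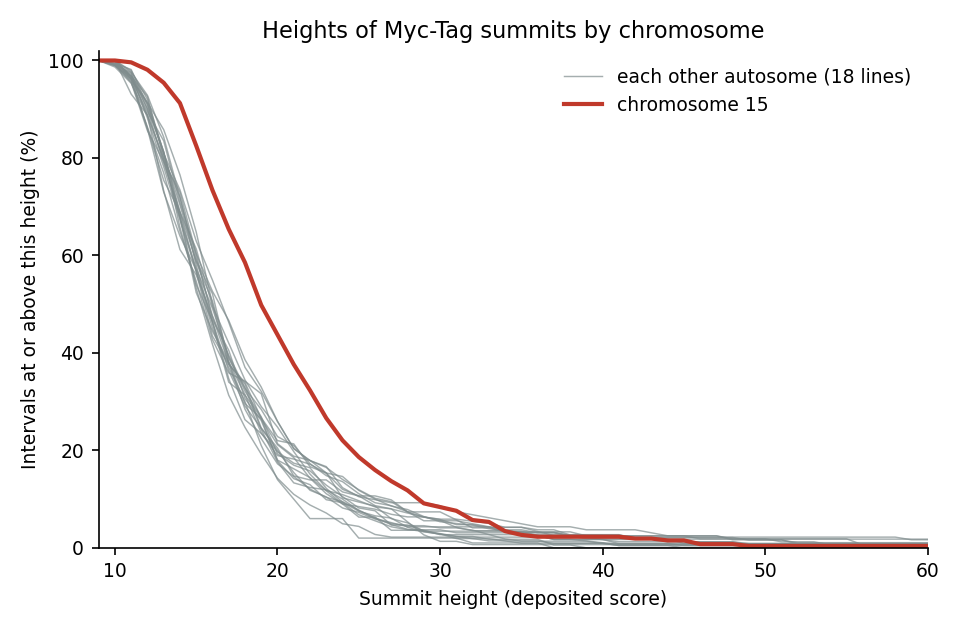
Share of intervals (%) whose summit reached each height (deposited score) on chromosome 15 (thick red line) and on each of the other 18 autosomes (thin grey lines). At a height of 19 the red line is at 49.8% and the grey lines lie between 19.2 and 33.0%.

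Intervals on chromosome 15 were also wider, at equal height too. The median width was 1017 bp (968 to 1063 bp), with a range of 380 to 4913 bp, against 739 bp (728 to 749 bp) on the other autosomes together and 691.5 to 789 bp on each. Among summits of height 12 to 14, the median width was 938 bp on chromosome 15 (n = 41) and 696 bp elsewhere (n = 1013). Among summits of height 18 to 20 it was 1045 bp (n = 55) and 768.5 bp (n = 472). The ratio of the medians was 1.21 to 1.40 over 6 height classes, and in the class of 27 to 29 the 95% intervals overlapped (676 to 1364 bp with n = 14, against 706 to 794 bp). In the other 5 classes the interval of the chromosome 15 median did not include the median elsewhere.

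**Figure D2:**
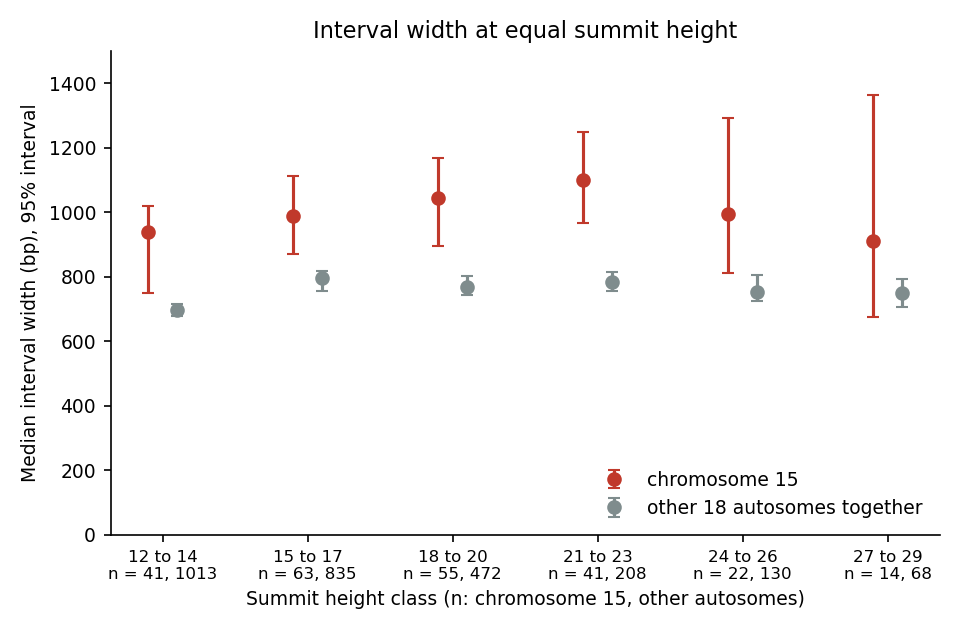
Median interval width (bp) with its exact 95% interval in 6 classes of summit height (score) for chromosome 15 (red) and the other 18 autosomes together (grey), with the number of intervals under each class. The red medians lie above the grey in every class, by 1.21 to 1.40 times, with overlapping intervals in the class of 27 to 29.

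By position, no class of chromosome 15 intervals differed from the other autosomes in its share beyond counting error. Summits were classed by their distance to annotated genes. A summit within 1 kb of an end of 1 coding gene was found for 124 intervals (47.1%, 41.2 to 53.2%, against 46.9% on the other autosomes). Another 22 (8.37%) were near ends of 2 or more coding genes, against 11.9%, a difference of -3.58 points (-6.59 to 0.54). The gene body away from ends held 70 (26.6%), against 24.1%, a difference of 2.54 points (-2.66 to 8.37). Intergenic positions held 38 (14.4%), against 11.1%, a difference of 3.32 points (-0.587 to 8.19). The last 9 (3.42%) were near a noncoding gene end only, against 5.92%, a difference of -2.50 points (-4.34 to 0.548). Each of these 4 intervals of a difference includes 0. Near any coding end lay 146 summits (55.5%, 49.5 to 61.4%). The share was 58.4% of all Myc-Tag summits, and ran from 47.0 to 70.7% over the other autosomes.

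The greater height was seen in each position class. The median on chromosome 15 was 18 (17 to 19) near 1 coding end, 19.5 (17 to 24) near 2 or more, 18 (16 to 20) in gene bodies, 20 (17 to 22) between genes and 17 (15 to 23) at noncoding ends. The other autosomes had medians of 15 in each class, except 16 near 2 or more coding ends. At noncoding ends, with 9 intervals, the lower bound of the chromosome 15 median equalled the median elsewhere. Widths followed the same order of chromosomes: 1079.5 against 782 bp near 1 coding end, 972 against 670 bp in gene bodies and 855.5 against 621 bp between genes.

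**Figure D3:**
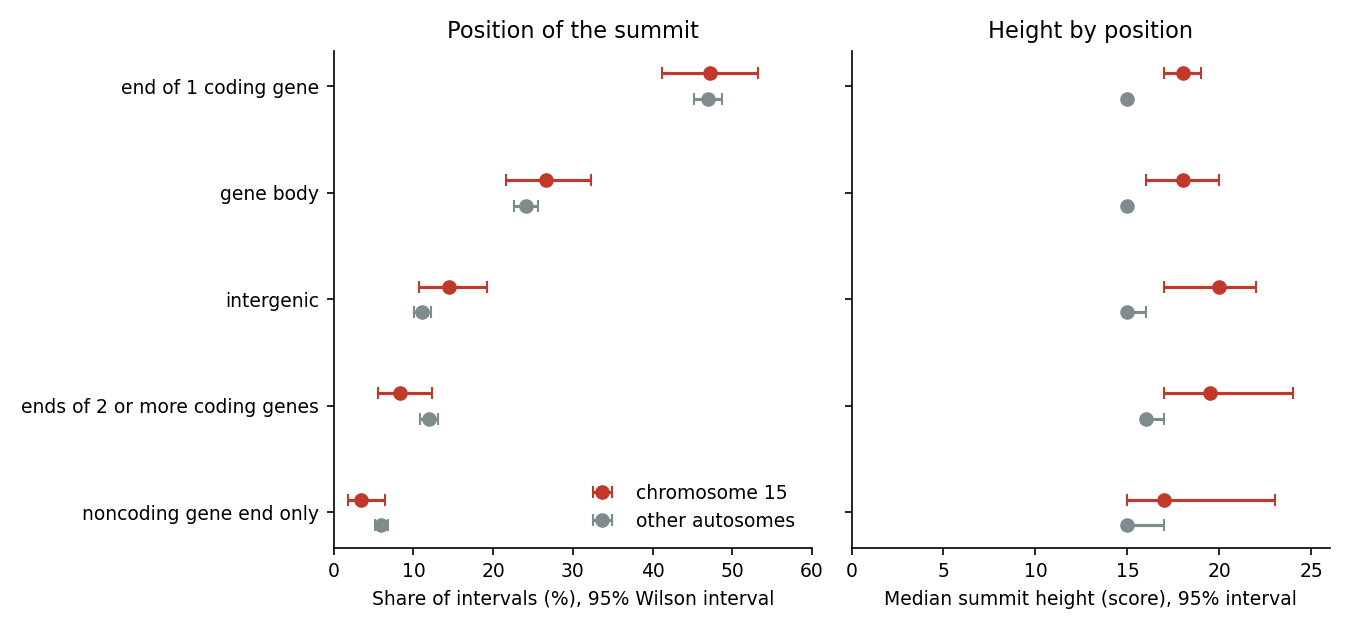
Left, share of intervals (%) in each position class with 95% Wilson intervals. Right, median summit height (score) in the same classes with exact 95% intervals. Chromosome 15 is red and the other autosomes together are grey. The shares overlap between the colours, while the red heights lie at 17 to 20 and the grey at 15 to 16.

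Where strand could be used, summits lay at starts and seldom at the other end. A RefSeq promoter start was listed for 422 of the 776 coding genes. Of 263 summits, 91 (34.6%) lay within 1 kb of such a start, 42 upstream and 49 downstream. The median position was 59 bp downstream (quartiles -94.5 and 208 bp), and 58 of the 91 (63.7%) were within 250 bp. Of the 422 genes, 83 (19.7%) had a summit within 1 kb of the 5′ end and 5 (1.18%) within 1 kb of the 3′ end, with 2 genes counted in both. Summits at a 3′ end that had no listed start within 1 kb were those of Xrcc6, a subunit of the Ku complex of DNA repair (height 13, position 82040224), and of Tuba1b, an alpha-tubulin (19, 98931216). Positions are not exact to the base, as 254 of the 263 summits lay on a multiple of 16 bp.

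**Figure D4:**
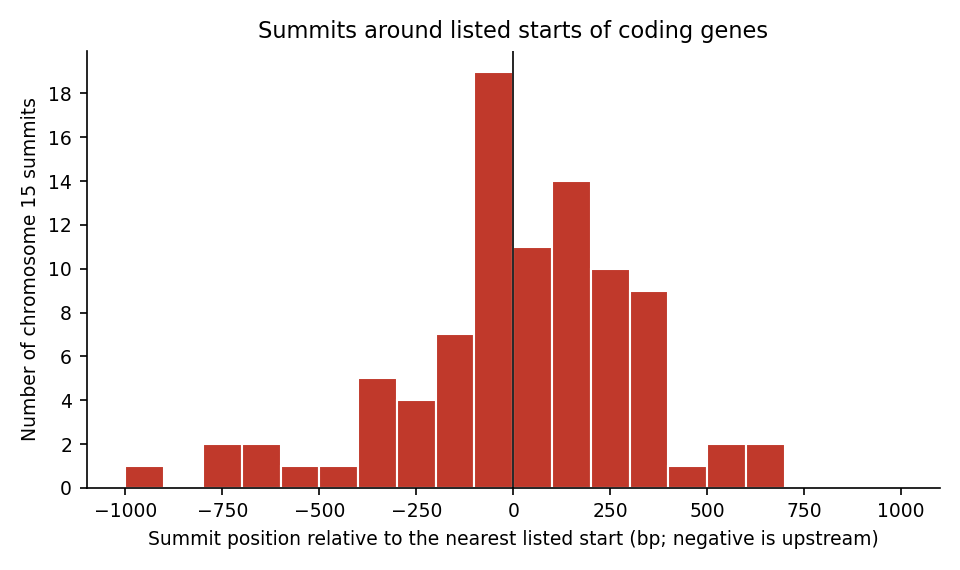
Number of chromosome 15 summits by distance (bp) from the nearest listed start of a coding gene, with upstream negative and downstream positive. Of the 91 summits plotted, 58 lie within 250 bp of the start, shown by the vertical line.

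Some summits classed as gene body lay near a listed start. Of the 70 gene-body summits, 63 were inside a coding gene and 7 inside noncoding genes only, and 14 (20%) were within 1 kb of such a start. Examples were Tnrc6b, a partner of Argonaute in gene silencing (height 22, 50 bp upstream of a listed start), Mrtfa, a coactivator of serum response factor (23, 151 bp downstream), Map3k12, a kinase of the JNK pathway (22, 20 bp upstream), and Kmt2d, a histone H3 lysine methyltransferase (29, 987 bp upstream). The 38 intergenic summits lay 1.068 to 890.259 kb from the nearest coding gene, with a median of 15.439 kb. Of these, 23 were over 10 kb away and 11 over 50 kb.

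Counted by gene, 165 of 776 coding genes on chromosome 15 (21.3%, 18.5 to 24.3%) showed a summit no more than 1 kb from an end. This share was 11.3% over all autosomes and 11% on the other autosomes (7.19 to 14.2% on each). With a height of at least 19, 82 genes qualified (10.6%, 8.59 to 12.9%), against 2.97% on the other autosomes (2.74 to 3.22%). An interval in the body or within 1 kb was found for 217 genes (28.0%), with 2 or more for 30 of them. These 2 counts were not made on the other autosomes, so they cannot be set against the general density. These gene shares are read below against the 21.3% of the chromosome, in 14 lists of chromosome 15 genes grouped by textbook role. The lists were written with earlier results of these data known and do not hold every gene of a role. Shares and their order therefore depend on the members chosen. The members are not replicates, and neighbours can share 1 interval, so the lists are described by counts, without a test.

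Among the lists as written, that of genes for RNA processing had the highest share. In this list 12 of 21 members (57.1%, 36.5 to 75.5%) had a summit near an end, with a median of 19.5 for the tallest summit of each. They included Cpsf1 (height 48), a subunit of the cleavage and polyadenylation factor, whose interval was also called in the input. Puf60, a splicing factor, had summits of 34 at an end and 23 in the body. Poldip3, a factor in mRNA export, had 30, Hnrnpa1 and Tnrc6b 23 and the helicase Ddx23 20. Lower summits were those of Phf5a (19), Zcrb1 (17), Drosha, the nuclease of microRNA processing (16), Snu13 (15), Pcbp2 (13) and Zfr (11). Ago2, an effector of microRNA silencing, had none within 33.7 kb.

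Of ribosomal protein and translation genes, 7 of 14 (50%, 26.8 to 73.2%) had a summit near an end, with a median of 21. Atf4, which is itself a transcription factor that responds to translational stress, had 31. Without it, a count made after its value was seen, 6 of 13 members (46.2%, 23.2 to 70.9%) had a summit, with a median of 20.5. Rpl3, of the large ribosomal subunit, had 28 and 18 at its opposite ends, and Pabpc1, the poly(A)-binding protein, had 25 at an end and 18 in the body. Eif3d (21), Rpl8 (20), Eef1d (18) and Eif3e (15) completed the group. The other 7 had no interval in the body or within 1 kb, among them Rpl37 (nearest summit 24.4 kb away), Rpl30 (357 kb) and Eif4b (7.92 kb). Mitochondrial proteins had a summit at 8 of 19 members (42.1%, 23.1 to 63.7%), with a median of 21.5. They included Atp5g2, of the ATP synthase (28), Tomm22 (25), the copper chaperone Sco2 (24), Slc25a32 (22), Slc25a17 (21), Mcat (18) and Mrpl13 (16).

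Chromatin and transcription genes had a summit near an end at 17 of 35 members (48.6%, 33.0 to 64.4%), with a median of 19. Another 5 had only intervals in the body or reaching within 1 kb of the gene. Arid2, a subunit of the PBAF remodelling complex, had a summit of 45, 770 bp outside the gene. H1f0, the linker histone H1 of resting cells, had 34 and 18. The 18 lies inside the neighbouring gene Gcat, 70 bp from its listed start. Maf1, a repressor of RNA polymerase III, had 26 in an interval also called in the input. Cbx5, the heterochromatin protein HP1 alpha, had 23 at the end it shares with Hnrnpa1. Kansl2 and Atf7 had 20, Ccnt1, Srebf2 and Klf10 had 19, and the acetyltransferase Ep300 had 18. These 5 were Kmt2d (29), the cohesin loader Nipbl (16 and 17), Brd1 (15), Tcf20 (12) and the cohesin subunit Rad21. At Rad21 the summit of 15 lay in the body, at an end of Gm52217, and that of 13 lay 1068 bp outside the gene. Sp1 (22.7 kb to the nearest summit) and Hdac7 (2.77 kb) were among the 13 without.

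Signaling kinases, ubiquitin and trafficking genes had a summit at 12 of 22 members (54.5%, 34.7 to 73.1%), with a median of 20. The tallest were those of the ubiquitin ligase Rnf19a (25), Tab1, an activator of the kinase TAK1 (24), and the Golgi adaptor Gga1 (23). Josd1 and the deubiquitinase Otulin had 22, Rnf139 had 21, and Prkaa1, a catalytic subunit of AMP-activated kinase, had 19. Ywhaz, an adaptor that binds phosphoserine, had 14 at an end and 26 in the body. DNA replication, repair and mitosis genes had a summit at 8 of 25 members (32%, 17.2 to 51.6%), with a median of 17. They were Rangap1 and Tuba1b (31), the condensin subunit Ncaph2 (24), Tubgcp6 (18), Rrm2b, of ribonucleotide reductase (16), Dscc1 and Rbx1 (14), and Xrcc6 (13). The 6 lists of broadly used functions together held 64 members with a summit among 134 different genes (47.8%).

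**Figure D5:**
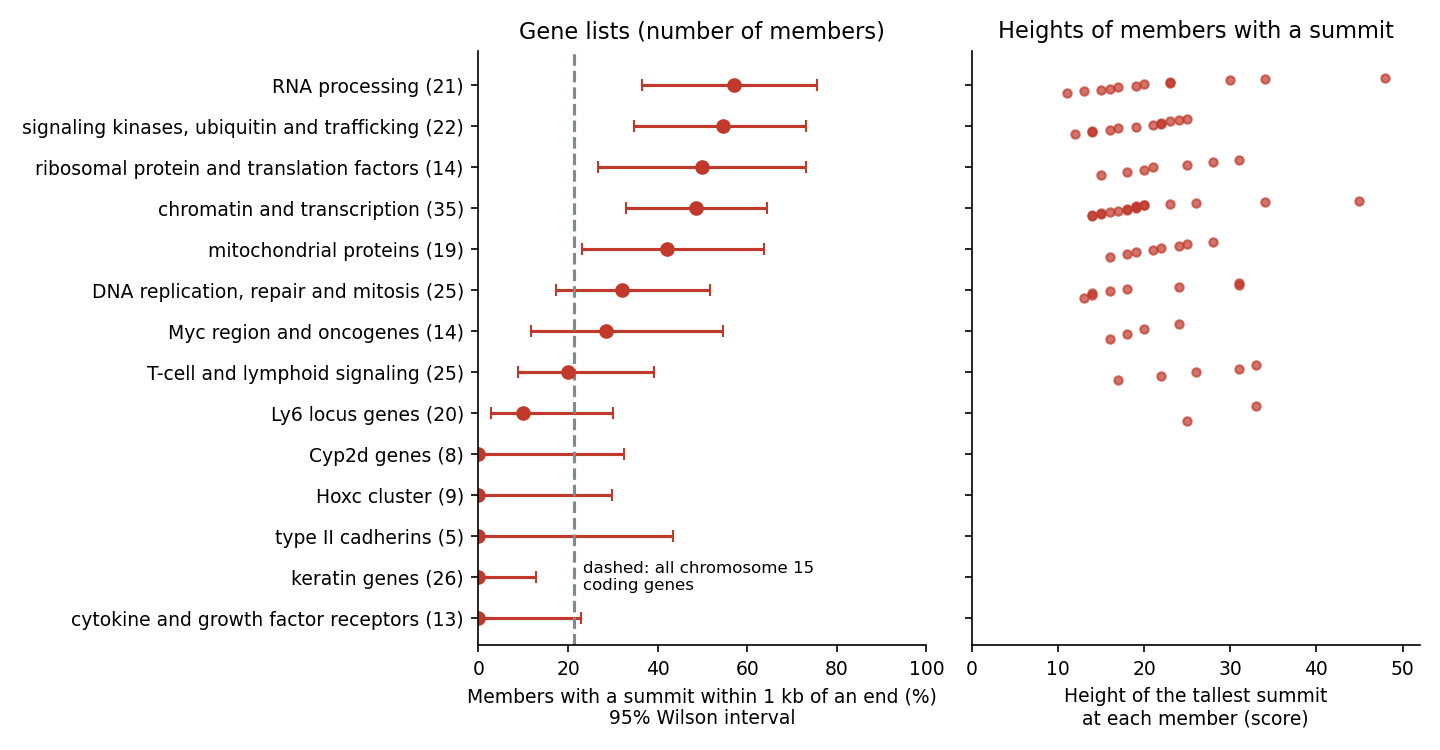
Left, share of the members of each of 14 gene lists (%) with a summit within 1 kb of an end, with 95% Wilson intervals and the number of members in parentheses. The dashed line marks the 21.3% of all chromosome 15 coding genes. Right, the height (score) of the tallest such summit at each member. The lists run from 12 of 21 RNA processing genes to 0 of 26 keratin genes.

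T-cell and lymphoid signaling genes had a summit near an end at 5 of 25 members (20%, 8.86 to 39.1%), close to the 21.3% of the chromosome. They were Ly6e, a surface protein of immature thymocytes (33), Grap2, the adaptor Gads of T-cell receptor signaling (31), Sharpin, of the linear ubiquitin ligase (26, called in the input), Apobec3, a cytidine deaminase that restricts retroviruses (22), and the kinase Pim3 (17). The adaptors Fyb (18 and 15) and Sla (20) had summits in the body. The 18 without an interval included Il7r, the interleukin 7 receptor of early T cells (nearest summit 435 kb away), Il2rb (72.9 kb), the GTPase Rac2 (153 kb), Mfng, a glycosyltransferase that modifies Notch (29.1 kb), Itgb7 (11.7 kb) and Nr4a1 (7.34 kb). Occupancy under the calling threshold is not detectable from peak calls.

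In the list of the Myc region and other oncogenes, 4 of 14 members (28.6%, 11.7 to 54.6%) had a summit near an end: Atad2 (24), Trib1 (20), Mtdh (18) and Cyrib (16). Myc itself had none, and the nearest summit was 222 kb away. Pvt1, the noncoding gene next to Myc, had a summit of 13 in the body, and Pdgfb, a growth factor chain, one of 17. Ptk2, the focal adhesion kinase, was 137 kb from the nearest summit. In the Ly6 locus, 2 of 20 genes (10%, 2.79 to 30.1%) had a summit near an end, Ly6e (33) and Ly6k (25), and Lynx1 had 27 in the body. The thymocyte and T-cell marker Ly6a lay 1.92 kb from a summit.

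In the other 5 lists no member had a summit near an end. They were the 26 keratin genes (0 members, which allows up to 11.5%), 13 cytokine and growth factor receptors (up to 23.1%), 9 Hoxc genes (up to 33.3%), 8 Cyp2d genes (up to 37.5%) and 5 type II cadherins (up to 60%). Only for the keratin genes is that limit under the 21.3% of the chromosome. The limit counts members as independent, but the keratin genes lie side by side between 101348315 and 102032026, in a stretch without intervals. It therefore does not set these genes apart from the chromosome. Krt8, an epithelial keratin, was 61.5 kb from the nearest summit and Krt5 353 kb. The receptor nearest to a summit was Acvr1b, at 27.2 kb, while Csf2rb lay 55.3 kb, Ghr 396 kb and Lifr 489 kb from one. Hoxc6 had a summit of 15 in the body.

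The tallest summits not called in the input were of several kinds. Including ties, 21 summits had a height of 29 or more: 10 near 1 coding end, 3 near 2 coding ends, 5 in gene bodies and 3 between genes. The tallest pair, at 45, lay in the body of Tnrc6b (chr15:80822092-80822892) and near the ends of Arid2 and Gm38469 (chr15:96284546-96287176), and 38 summits of the whole library were higher. Next were 43 in the body of Adamts20, a secreted metalloprotease (chr15:94423205-94424123), and 41 between genes, 64876 bp from the nearest coding gene (chr15:8568757-8570142). These were followed by Zfat, a zinc finger factor of T-cell survival (35, chr15:68257898-68259316), the end shared by Puf60 and Scrib (34), H1f0 (34), the end shared by St13 and Xpnpep3 (33), Fam118a (33), Ly6e (33) and the body of Mrtfa (33). The rest were an intergenic summit near Scube1 (32), then Grap2, Atf4, Tuba1b, Atg101 and Rangap1 (31), Poldip3 and the body of Phf21b (30), and the body of Kmt2d and an intergenic site near Kcnk9 (29).

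The tallest sites included both wide and narrow intervals. The 3 widest intervals on the chromosome were 4913 bp at Ly6e (chr15:74953891-74958803), which spans most of the gene (74955025 to 74959904), 2723 bp in a noncoding gene body near Ly6e (chr15:74931031-74933753, height 23) and 2631 bp beside Arid2. In the whole library 1 interval was wider than that of Ly6e. The intervals at Trib1 (2612 bp, height 20), in the body of Ywhaz (2438 bp, 26) and at Atf4 (2271 bp, 31) came next. The summit of 45 in Tnrc6b lay in an interval of 801 bp, that of 33 in Mrtfa in 631 bp and that of 29 near Kcnk9 in 497 bp, all under the chromosome's median width of 1017 bp.

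On chromosome 15, 5 of the 263 intervals (1.90%, 0.815 to 4.37%) were also called in the input, against 0.805% of all Myc-Tag intervals. The tallest of the chromosome lay among them, at 155 in the Myc-Tag library and 70 in the input (chr15:75085193-75087163). It was intergenic, 21217 bp from Ly6c2 in the Ly6 locus. The others were at Cpsf1 (48 and 16, chr15:76606910-76607992), at a listed start of Xrcc6 and an end of Desi1 (33 and 14, chr15:82015012-82016952), at Maf1 and Sharpin (26 and 14, chr15:76350342-76352030) and in the body of Spats2 (21 and 18, chr15:99129449-99130847). The ratio of the heights ran from 1.17 at Spats2 to 3 at Cpsf1, and no scale common to both libraries is stated. Without these 5, the tallest summit of the chromosome was 45.

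Several genes had 2 or more intervals in the body or reaching within 1 kb. The median gap between neighbours was 105 kb, while 29 gaps were under 10 kb and 6 under 1 kb. Gaps were not counted on the other autosomes, so grouping beyond the density of the chromosome was not tested. Tnrc6b, Xrcc6 and Tuba1b each had 3 intervals. In Tnrc6b the heights were 23, 22 and 45 over 111616 bp, the first at an end of the gene and the second at a listed start inside it. At Tuba1b they were 17, 19 and 31 over 3760 bp, the 17 lying 1093 bp outside the gene and the tallest at the start. In Xrcc6 they were 15, 33 and 13 over 50272 bp, and the 33 is the interval called in the input. Closely spaced pairs were those of Nipbl (16 and 17, summits 624 bp apart), the amino acid transporter Slc38a1 (11 and 18, 672 bp) and Pabpc1 (18 and 25, 1104 bp). The intervals of these pairs almost touch. At Nipbl the first ends at 8444498 and the second starts at 8444502. The same positions are 96640964 and 96640990 at Slc38a1, and 36608840 and 36608864 at Pabpc1. Such a pair may be 1 enriched region called in 2 parts, which was not tested. Other genes with 2 intervals included Myh9, a nonmuscle myosin (28 and 19), Mtss1 (23 and 16), the calcium channel subunit Cacnb3 (22 and 20) and Maff, a small Maf factor (18 and 19). Hnrnpa1 was also counted (23 and 17), but neither summit lies inside it. The 23 is at the end shared with Cbx5, and the 17 is 36 bp outside the neighbouring gene Nfe2.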

How the data were processed

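The Myc-Tag ChIP and the input of a Lck-Dlx5 lymphoma were compared as deposited peak calls, with 1 library each. The authors deposited 5 tracks with the intervals and summits of both libraries and a list of active regions identical to the Myc-Tag intervals. The value the authors deposited with a summit is a score, its height, whose normalization is not given in the sources used here. The methods name an Illumina GA II and peak calling by MACS p-value, and the submitters' processing notes name BWA and mm9. Versions, the calling threshold and the read totals are not given in the sources used here, so the depth is unknown.

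Summits were joined to intervals and to RefSeq genes of GRCm38.p6 (20665 coding genes on autosomes), with a minimum overlap of 1 bp and 1 kb around gene ends. The gene table gives no strand, so starts were told apart only where a RefSeq promoter was listed. The 14 gene lists, the members and the tests were chosen with earlier results of these data known. Named were genes at the 20 tallest summits not called in the input (with ties), at intervals called in the input, list members, genes with 2 or more intervals, and Myc and Ptk2. The results of some list members are not reported here. Intervals are Wilson, Newcombe or exact order-statistic intervals at 95% and cover counting error only. A count of 0 was given the limit that 3 counts allow. The tools were scipy 1.17.1, pandas 2.3.3, numpy 2.4.6 and, for figures, matplotlib 3.10.9, under Python 3.11.15. The classing of summits near coding gene ends and the interval of the median were tested on simulated data. The other steps were not. Alternatives were a higher threshold on height, other distances to genes, intervals without input calls and merged neighbours.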

Additional observations from a re-analysis of the deposited data

How the results depend on the processing

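Of 45 alternative values, 31 stayed within the error of the value reported, or within 1.5 times for a count, and 14 did not. Part of this follows from the settings. A higher threshold on height can only lower counts and raise the median height. The input calls, 5 of 263 intervals, are too few to move the larger counts by 1.5 times. With summit heights of at least 16, the median height was 21. With heights of at least 19, 131 intervals, 82 genes with a summit near an end, a median height of 23, 33 gene-body and 24 intergenic intervals and 37 list members remained. Within 500 bp of a coding end lay 47.5% of summits, and within 5 kb 70.3%, which left 30 in gene bodies. With listed starts alone, the share was 34.6%, with 83 genes and 32 list members. This setting both kept only genes with a listed start and replaced gene ends by starts. With TAATTA in place of TAATT, 2.5% of promoters inside intervals held the motif. Leaving out the input calls or merging intervals closer than 10 kb moved no value beyond these limits, nor did leaving out Atf4, an alternative chosen after seeing the data. No paired analysis was possible because a single library stood for each group, which also left no replicate to drop in turn. The unknown depth limits what can be said of genes without an interval.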

Other observations

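Long stretches of chromosome 15 held no interval. The longest ran for 13.2 Mb, from 12825522 after the Drosha interval to 25983935 before that of Zfp622, and 10 coding genes lay wholly inside it, among them the cadherins Cdh6, Cdh9, Cdh10, Cdh12 and Cdh18, Basp1 and Myo10. The next ran for 7.34 Mb, from 44620042 near Ebag9 to 51961307 near Rad21, with 6 coding genes inside, among them Trps1, Csmd3 and the translation factor Eif3h. Between Zfat and the Kcnk9 site another ran for 4.31 Mb, with 4 coding genes inside. These stretches hold few genes, and 21.3% of all chromosome 15 coding genes had a summit near an end. The 10 Mb segments from 10, 20 and 40 Mb held 24, 16 and 17 coding genes, against 25 to 194 in the other segments. Per 100 coding genes they held 29.2, 18.8 and 35.3 intervals, against 24.0 to 56.1 in the others.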
